A study of Mus musculus with 12 samples.

Results

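The EGF family, the epidermal growth factor ligands and the ERBB receptors that bind them, was followed through 4 lines of murine Braf V600E melanoma cells. Its 9 genes, of 30705 gene names measured, were chosen by name. They were the 6 ligand genes *Areg*, *Ereg*, *Hbegf*, *Tgfa*, *Btc*, and *Nrg1* and the 3 receptor genes *Egfr*, *Erbb2*, and *Erbb3*. The study set the roles of 3 prostaglandin enzymes apart by knocking out the genes of COX-1 (*ptgs1*), COX-2 (*ptgs2*), and mPGES-1 (*ptges*). RNA-seq was performed on 3 samples of each knockout (*ptgs1*-KO, *ptgs2*-KO, and *ptges*-KO) and of scramble, the control cells, all grown *in vitro* without a drug. All 4 lines, the controls included, came from melanoma cells of a C57BL/6 mouse with the alleles Braf+/LSL-V600E, Tyr::CreERT2+/o, and p16INK4a-/-, in which the *Tyr* promoter drives an inducible Cre in melanocytes, and were grown with 10% FBS. Knockout cells were made with CRISPR/CAS9, selected with puromycin, and subcloned by limiting dilution, and the 3 samples of a line are described as different subclones. The effect of a lost enzyme and that of the editing and selection each knockout line passed through cannot be told apart here.

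EGF family ligands are made as membrane-anchored precursors and are released by cell surface proteases such as ADAM10 and ADAM17. Amphiregulin, epiregulin, HB-EGF, TGF-alpha, and betacellulin bind EGFR, and epiregulin, HB-EGF, and betacellulin can also engage ERBB4. Neuregulins bind ERBB3 and ERBB4. ERBB2 has no known ligand of its own and acts as the partner of the other receptors, and ERBB3 has little kinase activity of its own. In melanocytes and melanoma, neuregulin signaling through ERBB3 with ERBB2 is a known growth input, and EGFR is often low.

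Values are RPKM, read numbers scaled to transcript length and to the mapped reads of a sample, so levels can be compared between genes as well as between samples. The study also calls these values normalized counts, and comparisons of levels between genes, as for the most abundant member or the shares of ligands, hold only if the values are per length. They came without read counts, and a depth of 13.45 to 17.15 M reads per sample was estimated from the steps between low values. Each targeted mRNA was low in the line labelled for it. *Ptgs1* in *ptgs1*-KO cells was at 10.58% of its scramble mean, *Ptgs2* in *ptgs2*-KO cells at 10.48%, and *Ptges* in *ptges*-KO cells at 47.9%. In *ptgs1*-KO cells *Ptges* was also lower (70.2%, log2 difference -0.50, adjusted p = 0.0011), as was *Ptgs2* (78.5%, -0.36, adjusted p = 0.0386). The *Ptgs2* call was lost without any scramble replicate or *ptgs1*-KO replicates 1 or 3. It was also lost with no filter on low values and with only the 2 lines compared in the fit (adjusted p up to 0.118). Samples of a line correlated at 0.984 to 0.995 on log2(RPKM + 1) and samples of different lines at 0.962 to 0.985. In 1 library, *ptgs1*-KO replicate 3, the 20 most abundant genes held 32.2% of the summed values, against 21.4% to 26.3% in the other libraries. Of 10 melanocyte lineage markers, *Mitf* and *Pax3* had a mean of at least 1 RPKM, and *Sox10*, *Dct*, *Tyrp1*, *Mlana*, and *Kit* were listed at 0 in all samples. The list summed to 7.72 to 12.2 RPKM.

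*Ereg*, *Areg*, and *Btc* lie side by side on mouse chromosome 5 with *Epgn*, another ligand gene (GRCm38, the build the submitters' processing notes name as mm10). *Ereg* spans chr5:91074622-91093646 and *Areg* chr5:91139599-91148432, both on the plus strand, 45.95 kb apart. *Btc* follows 209 kb further on, at chr5:91357261-91402994 on the minus strand, and 0 annotated protein-coding genes lie between these neighbors. Elsewhere lie *Egfr* at chr11:16752203-16918158 and *Erbb2* at chr11:98412470-98437716 (plus strand), *Tgfa* at chr6:86195223-86275719 (plus), *Nrg1* at chr8:31814551-32884029 (minus), and *Erbb3* at chr10:128567523-128589652 (minus).

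The 3 promoters shown are those of *Areg*, *Btc*, and *Egfr*, the members with the largest share of their variance between lines (99.3%, 98.1%, and 97.5%). Each is the 250 bases before the annotated transcript start, 5′ to 3′ on the gene's strand, from RefSeq (GRCm38.p6). Capitals mark the cAMP response element TGACGTCA, the DNA element of the factors that act downstream of cAMP.
Areg, chr5:91139349-91139598, plus strand: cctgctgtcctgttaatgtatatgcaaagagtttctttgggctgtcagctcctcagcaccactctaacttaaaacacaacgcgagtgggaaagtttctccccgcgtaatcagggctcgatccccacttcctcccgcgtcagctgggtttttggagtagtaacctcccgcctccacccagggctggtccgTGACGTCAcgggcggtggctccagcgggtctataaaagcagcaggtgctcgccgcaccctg
Btc, chr5:91402995-91403244, minus strand: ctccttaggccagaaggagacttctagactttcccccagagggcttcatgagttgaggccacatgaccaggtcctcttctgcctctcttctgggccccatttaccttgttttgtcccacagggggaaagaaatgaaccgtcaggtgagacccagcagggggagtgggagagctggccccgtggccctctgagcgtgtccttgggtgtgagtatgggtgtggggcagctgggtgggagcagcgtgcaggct
Egfr, chr11:16751953-16752202, plus strand: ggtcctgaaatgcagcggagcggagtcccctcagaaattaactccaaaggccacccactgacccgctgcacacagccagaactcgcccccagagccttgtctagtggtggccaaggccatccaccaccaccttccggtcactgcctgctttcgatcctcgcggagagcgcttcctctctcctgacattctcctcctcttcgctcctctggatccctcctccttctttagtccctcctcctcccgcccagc
The element occurred 1 time in the *Areg* promoter, from 61 to 54 bases before the start. Searched on both strands, it was found in 508 of 32851 promoter windows of the same length (1.55%), and in 1 of the 5 member promoters in the table, those of *Areg*, *Tgfa*, *Btc*, *Egfr*, and *Erbb2*. The AP-1 letters TGAGTCA or TGACTCA were in 1466 windows (4.46%) and in 0 of these 5. Such a match is a description of letters and not of a bound site.

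Of the 9 members, 7 passed the filter for testing, an average RPKM of 1 or more across samples. *Tgfa* and *Egfr* did not. Differences between lines were tested with limma on log2(RPKM + 1) in 11282 genes, and a gene was called when its p, adjusted by Benjamini-Hochberg over all of them, was under 0.05. All fold changes are on the log2(RPKM + 1) scale. In *ptgs1*-KO cells 1 of the 7 members was called against scramble (*Areg*, lower), where 9.26% of all genes were, 4.65% higher and 4.61% lower. In *ptgs2*-KO cells 4 were called, all lower (*Btc*, *Nrg1*, *Erbb2*, and *Erbb3*), where 11.1% of all genes were called, 5.97% higher and 5.17% lower. In *ptges*-KO cells 5 were called (*Areg* and *Hbegf* higher, *Ereg*, *Btc*, and *Erbb2* lower), where 26.3% of all genes were, 11.9% higher and 14.4% lower (1342 and 1627 genes, and 2054 and 1715 with median ratio scaling). Samples of a knockout line did not overlap with those of scramble cells for 4, 5, and 5 of the 7 members, beside 26.9%, 35.1%, and 43.3% of all genes. Median differences of the 7 members were -0.05, -0.49, and -0.17, beside -0.03 to 0.01 over all genes. Without *ptgs1*-KO replicate 3 the first count was 2, since *Btc* was then called. These comparisons share the same 3 scramble samples, and in such bulk samples fewer cells with a transcript and less of it per cell cannot be told apart.

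**Figure D1:**
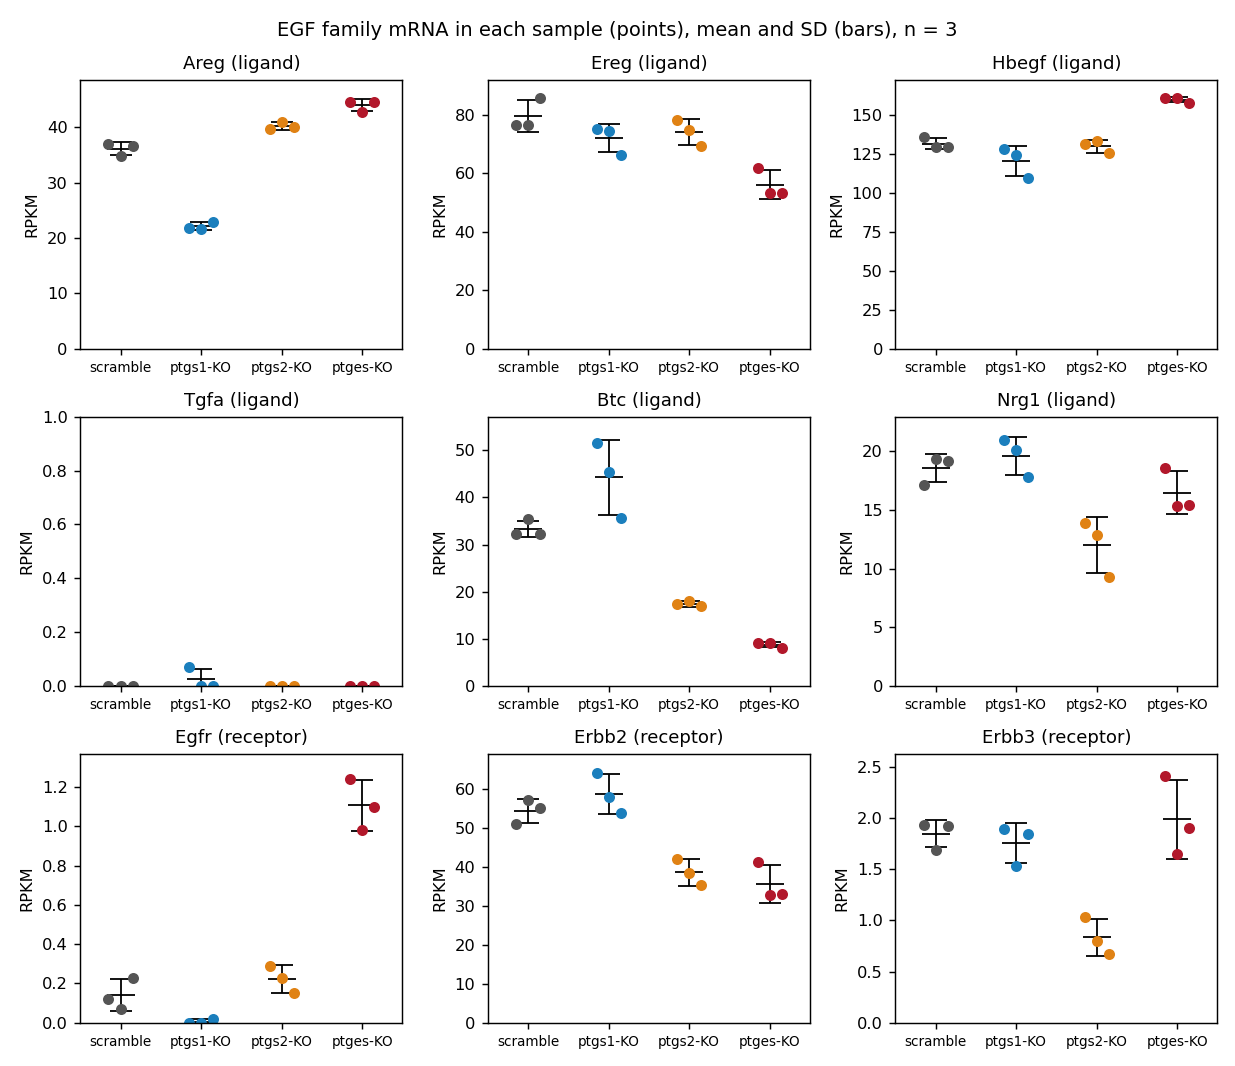
mRNA levels (RPKM) of the 9 EGF family genes in each of the 12 samples, 1 panel a gene with its own axis. Points are samples, and bars are the mean and SD of the 3 samples of a line. *Areg* sits at 21.7 to 23.0 RPKM in *ptgs1*-KO cells and above 34 in all other samples, and *Btc* falls from *ptgs1*-KO through scramble and *ptgs2*-KO to *ptges*-KO cells.

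*Areg* encodes amphiregulin, a low-affinity EGFR ligand. Scramble samples had 37.0, 34.8, and 36.6 RPKM, *ptgs1*-KO samples 21.9, 21.7, and 23.0, *ptgs2*-KO samples 39.7, 41.0, and 40.04, and *ptges*-KO samples 44.7, 42.7, and 44.6. All 4 lines were separate on these values, lowest in *ptgs1*-KO and highest in *ptges*-KO cells. *Areg* was lower in *ptgs1*-KO than in scramble cells by a log2 difference of -0.68 (SE 0.065, adjusted p = 1.4e-05), at 61.3% of the scramble mean. It was higher in *ptges*-KO cells by 0.28 (SE 0.065, adjusted p = 0.0075). The step from scramble to *ptgs2*-KO cells, 0.15 (95% confidence interval 0.01 to 0.29, adjusted p = 0.153), was not called although no sample overlapped. The same held for *ptges*-KO against *ptgs2*-KO cells (0.13, -0.01 to 0.27, adjusted p = 0.214). An exact permutation test of the 4 lines over all 15400 divisions of the samples gave p = 6.5e-05, the smallest these divisions can give.

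*Btc* encodes betacellulin, which binds EGFR and ERBB4. It was at 32.2, 35.4, and 32.3 RPKM in scramble, 51.5, 45.5, and 35.7 in *ptgs1*-KO, 17.4, 18.1, and 16.8 in *ptgs2*-KO, and 9.11, 9.09, and 8.02 in *ptges*-KO samples. The order of the lines ran from *ptgs1*-KO down to *ptges*-KO cells with no overlap between any pair, and the *ptgs1*-KO samples were the most spread (44.2 ± 7.96, SD, n = 3). *Btc* fell in *ptgs2*-KO cells by 0.89 on the log2 scale (SE 0.11, adjusted p = 2.7e-04) and in *ptges*-KO cells by 1.82 (SE 0.11, adjusted p = 2.1e-07), to 52.4% and 26.2% of the scramble mean. In *ptgs1*-KO cells it was 0.38 above scramble (SE 0.11, adjusted p = 0.0521), which missed the threshold. Without *ptgs1*-KO replicate 3, the library noted above and the lowest of its line, the difference was 0.53 (adjusted p = 0.0039), and over all alternatives the adjusted p ran from 0.0039 to 0.188. The exact permutation p over the 4 lines was 6.5e-05.

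By their median sum, fibroblast markers were also highest in *ptgs1*-KO and lower in *ptgs2*-KO and *ptges*-KO than in scramble samples. Unlike *Btc*, their sums overlapped between *ptgs2*-KO and *ptges*-KO samples and, narrowly, between scramble and *ptgs1*-KO samples. The 7 genes of the list summed to 17.5 to 23.97 RPKM in scramble, 23.95 to 35.4 in *ptgs1*-KO, 9.75 to 11.5 in *ptgs2*-KO, and 9.56 to 13.1 in *ptges*-KO samples. Of these genes, 2 had a mean of at least 1 RPKM, *Pdgfra* and *Pdgfrb*, both platelet-derived growth factor receptor genes. *Pdgfra* had means of 3.77 in *ptgs2*-KO and 5.36 in *ptges*-KO cells. *Col1a1* and *Col1a2* were low, and their means were not lower in *ptgs2*-KO than in scramble cells (0.34 against 0.31 and 0.21 against 0.14 RPKM). In *ptges*-KO cells they were lower (0.077 and 0.027). *Dcn* and *Lum* were listed at 0 in all samples, and *Thy1* reached at most 0.04. The part of these markers in the result was not tested. The keratinocyte, endothelial, leukocyte, and neural crest and Schwann lists summed to at most 1.64, 0.28, 2.36, and 3.34 RPKM. The last list includes the member *Erbb3*, its only gene with a mean of at least 1 RPKM.

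*Hbegf*, the gene of heparin-binding EGF-like growth factor, lies at chr18:36504927-36515805 on the minus strand and was the most abundant member per length in every sample. It measured 136, 129, and 130 RPKM in scramble, 128, 124, and 110 in *ptgs1*-KO, 131, 133, and 125 in *ptgs2*-KO, and 161, 161, and 158 in *ptges*-KO samples. The *ptges*-KO samples were above all others, and those of scramble and *ptgs2*-KO cells overlapped. The rise in *ptges*-KO cells was 0.28 (SE 0.070, adjusted p = 0.0104), to 122% of the scramble mean. The differences of *ptgs1*-KO cells (-0.13, 95% interval -0.28 to 0.03, adjusted p = 0.306, no overlap) and *ptgs2*-KO cells (-0.02, -0.17 to 0.13, adjusted p = 0.903) were not called. Over the 4 lines the exact permutation p was 0.0015.

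*Ereg*, which encodes epiregulin, followed the opposite course in *ptges*-KO cells. Scramble samples had 76.7, 76.5, and 86.0 RPKM, *ptgs1*-KO samples 75.2, 74.4, and 66.5, *ptgs2*-KO samples 78.3, 74.7, and 69.3, and *ptges*-KO samples 62.0, 53.3, and 53.2. The *ptges*-KO samples were below all others, while *ptgs2*-KO samples overlapped with those of both scramble and *ptgs1*-KO cells. *Ereg* fell by 0.50 on the log2 scale in *ptges*-KO cells (SE 0.086, adjusted p = 0.0012), to 70.4% of the scramble mean. It was not called in *ptgs1*-KO (-0.14, 95% interval -0.33 to 0.04, adjusted p = 0.347, no overlap) or *ptgs2*-KO cells (-0.10, -0.29 to 0.08, adjusted p = 0.477). Its exons overlap 141 bases of *Gm19610* on the opposite strand. The exact permutation p was 0.0044.

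*Nrg1* encodes neuregulin 1, the ERBB3 ligand, and was called against scramble in *ptgs2*-KO cells. Values were 17.2, 19.4, and 19.2 RPKM in scramble, 21.0, 20.1, and 17.8 in *ptgs1*-KO, 13.9, 12.9, and 9.31 in *ptgs2*-KO, and 18.6, 15.4, and 15.4 in *ptges*-KO samples. All *ptgs2*-KO samples were below all others, and the other lines overlapped. The *ptgs2*-KO difference was -0.60 (SE 0.13, adjusted p = 0.0106), at 64.7% of the scramble mean. In *ptges*-KO cells *Nrg1* was at -0.17 (95% interval -0.45 to 0.12, adjusted p = 0.384), and in *ptgs1*-KO cells at 0.07 (-0.21 to 0.36, adjusted p = 0.793). Exonic sequence of *Nrg1* overlaps 442 bases of *Gm26578* on the opposite strand, and whether counting used the strand is not given in the sources used here. The exact permutation p was 0.0022.

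*Tgfa*, the gene of TGF-alpha, was listed at 0 in 11 of the 12 samples and at 0.07 RPKM in *ptgs1*-KO replicate 1. At the estimated depth 1 read over its longest transcript is worth 0.0129 to 0.0164 RPKM, so this value stands for few reads, and no difference was detectable.

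The make-up of the ligands that bind EGFR also differed between lines. *Areg*, *Ereg*, *Hbegf*, *Tgfa*, and *Btc* together made 281 ± 4.37 RPKM in scramble, 259 ± 21.8 in *ptgs1*-KO, 262 ± 8.82 in *ptgs2*-KO, and 269 ± 7.06 in *ptges*-KO cells (SD, n = 3). *Hbegf* held 46.9%, 46.6%, 49.7%, and 59.5% of that sum in the same order, *Ereg* 28.4%, 27.8%, 28.3%, and 20.9%, *Areg* 12.9%, 8.61%, 15.4%, and 16.4%, and *Btc* 11.9%, 17.0%, 6.66%, and 3.25%. The neighbors *Areg* and *Btc* had opposite orders across the 4 lines, so their ratio spread further than either gene. *Btc* over *Areg* was 0.872 to 1.02 in scramble samples, 1.56 to 2.36 in *ptgs1*-KO, 0.421 to 0.442 in *ptgs2*-KO, and 0.180 to 0.213 in *ptges*-KO samples. These ratios and shares are of mRNA and are given as a description.

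**Figure D2:**
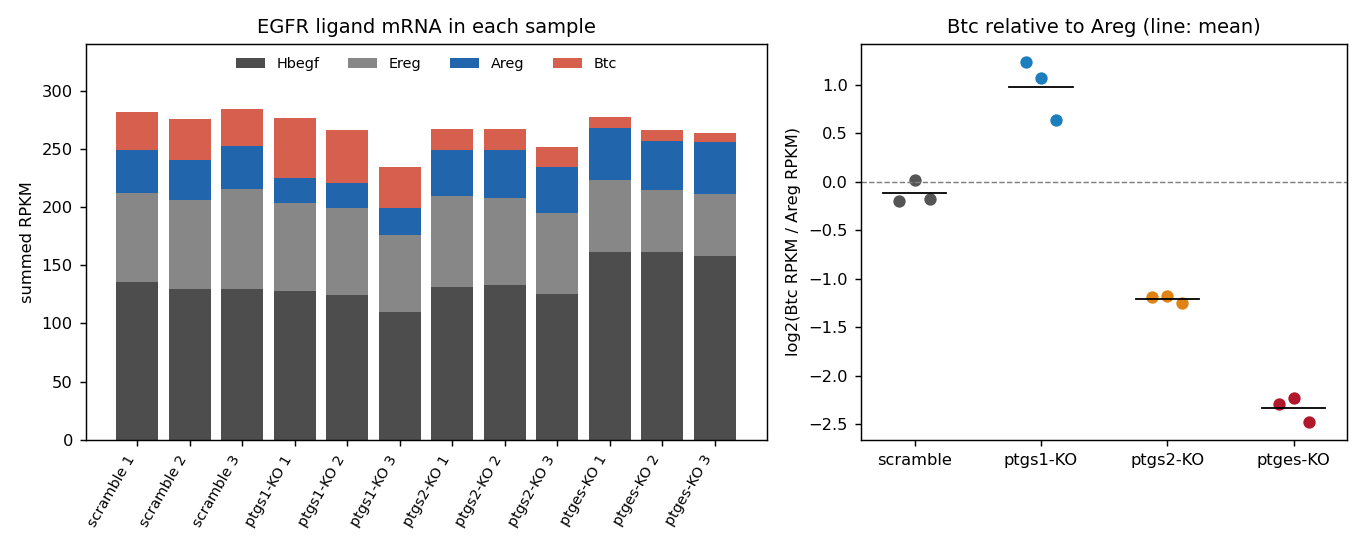
EGFR ligand transcripts in the 12 samples. Left, stacked bars of *Hbegf*, *Ereg*, *Areg*, and *Btc* RPKM by sample, with *Hbegf* the largest part and *Btc* shrinking to 3.25% of the sum in *ptges*-KO cells. Right, log2 of the ratio of *Btc* to *Areg* RPKM by sample with the mean of each line as a bar, above 0 in all *ptgs1*-KO samples and from -2.48 to -2.23 in *ptges*-KO samples.

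*Egfr* encodes the receptor of these ligands and was the lowest of the 3 receptor genes. It was listed at 0.12, 0.07, and 0.23 RPKM in scramble, 0, 0, and 0.02 in *ptgs1*-KO, 0.29, 0.23, and 0.15 in *ptgs2*-KO, and 1.24, 0.98, and 1.10 in *ptges*-KO samples. The *ptges*-KO samples were above all others, the *ptgs1*-KO samples below all others, and scramble and *ptgs2*-KO samples overlapped. The ratio of means was 7.90 for *ptges*-KO over scramble and 4.96 for *ptges*-KO over *ptgs2*-KO cells. Its mean lay below the filter, so limma gave no value in the filtered table. In the same test without a filter on low values (18623 genes, of which 16.1% were called in *ptges*-KO, 7.04% in *ptgs2*-KO, and 6.36% in *ptgs1*-KO cells), *Egfr* rose by 0.89 in *ptges*-KO cells (SE 0.062, adjusted p = 1.1e-05). In that test the differences of *ptgs1*-KO (-0.18, 95% interval -0.31 to -0.04, adjusted p = 0.140) and *ptgs2*-KO cells (0.10, -0.04 to 0.24, adjusted p = 0.405) from scramble were not called. At the estimated depth 1 read over the longest *Egfr* transcript (10208 bases) is worth 0.0057 to 0.0073 RPKM. The highest value, 1.24 RPKM, stayed far below those of *Erbb2*, and the exact permutation p was 3.9e-04.

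*Erbb2*, the ligandless partner receptor, was the most abundant receptor gene. It was at 50.8, 57.0, and 55.0 RPKM in scramble, 64.0, 57.9, and 53.8 in *ptgs1*-KO, 41.9, 38.5, and 35.2 in *ptgs2*-KO, and 41.3, 32.7, and 33.0 in *ptges*-KO samples. The samples of *ptgs2*-KO and *ptges*-KO cells lay below all those of scramble and *ptgs1*-KO cells, and within each of these pairs the lines overlapped. *Erbb2* fell by 0.49 on the log2 scale in *ptgs2*-KO (SE 0.10, adjusted p = 0.0094) and by 0.60 in *ptges*-KO cells (SE 0.10, adjusted p = 0.0012), to 71.0% and 65.7% of the scramble mean. Between these 2 lines the difference was -0.11 (95% interval -0.34 to 0.11, adjusted p = 0.499), and *ptgs1*-KO cells differed from scramble by 0.10 (-0.12 to 0.33, adjusted p = 0.595). Its exonic overlap with *Mien1* on the opposite strand is 9 bases. The exact permutation p was 0.0024.

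*Erbb3*, the neuregulin receptor, was low in every line. Scramble samples had 1.93, 1.69, and 1.92 RPKM, *ptgs1*-KO samples 1.89, 1.53, and 1.84, *ptgs2*-KO samples 1.03, 0.80, and 0.67, and *ptges*-KO samples 2.41, 1.65, and 1.90. The *ptgs2*-KO samples were below all others, as for *Nrg1*, and the other 3 lines overlapped. *Erbb3* fell by 0.64 on the log2 scale in *ptgs2*-KO cells (SE 0.13, adjusted p = 0.0075). At such values the pseudocount of 1 shrinks the difference, which was -1.08 with a pseudocount of 0.1, and the mean was 45.1% of that in scramble cells. In *ptgs1*-KO cells (-0.05, 95% interval -0.33 to 0.23, adjusted p = 0.863) and *ptges*-KO cells (0.06, -0.22 to 0.34, adjusted p = 0.765) it was not called. The exact permutation p was 0.0111.

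**Figure D3:**
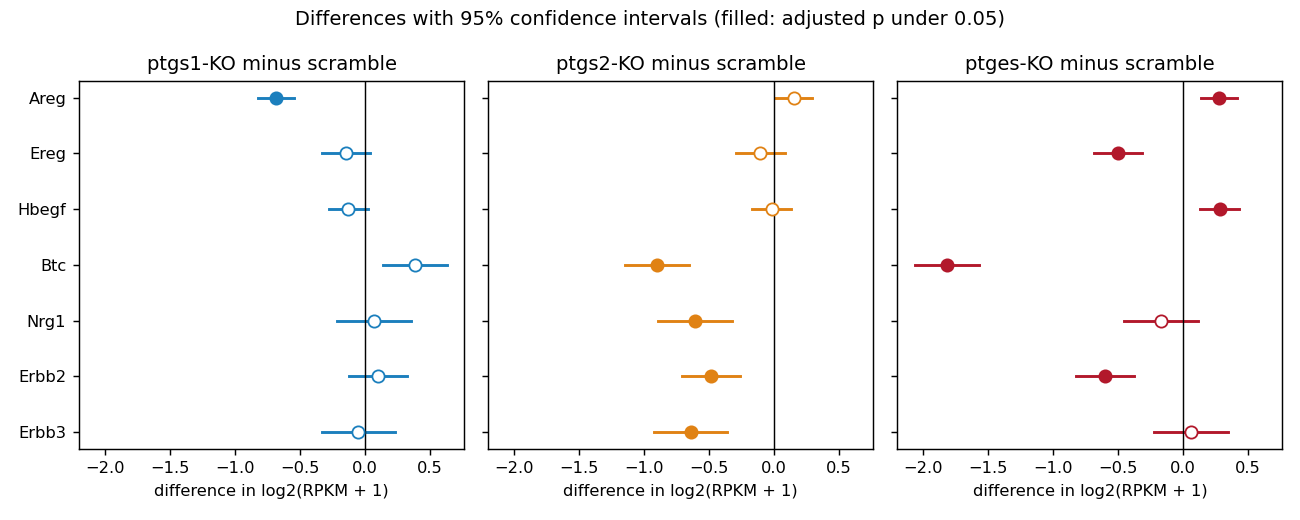
Difference of each of the 7 tested members from scramble cells in the 3 knockout lines, on the log2(RPKM + 1) scale with 95% confidence intervals as lines. Filled points had an adjusted p under 0.05, 1 in *ptgs1*-KO, 4 in *ptgs2*-KO, and 5 in *ptges*-KO cells, and *Btc* in *ptges*-KO cells is farthest from 0 at -1.82.

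Knockout lines were also compared with each other, which tests directly whether a member differed between them. Between *ptgs2*-KO and *ptgs1*-KO cells 5 of 7 members were called, where 23.6% of all genes were, and between *ptges*-KO and *ptgs1*-KO cells 5, where 30.2% were. *Areg* was higher than in *ptgs1*-KO cells by 0.83 in *ptgs2*-KO (adjusted p = 1.1e-06) and by 0.96 in *ptges*-KO cells (adjusted p = 1.9e-07). *Btc* was lower by 1.28 and by 2.20, and *Erbb2* by 0.59 and by 0.70. For *ptges*-KO against *ptgs2*-KO cells, where sequential enzymes of prostaglandin E2 synthesis were targeted, 5 members were called, where 16.6% of all genes were. *Ereg* and *Btc* were lower in *ptges*-KO cells (-0.40, adjusted p = 0.0072, and -0.92, adjusted p = 1.0e-04), and *Hbegf* and *Erbb3* were higher (0.30, adjusted p = 0.0109, and 0.70, adjusted p = 0.0026). *Nrg1* was also higher, by 0.44 (adjusted p = 0.0388). That call was lost without *ptgs2*-KO replicates 2 or 3 or any of the *ptges*-KO replicates. It was also lost without the filter and with only the 2 lines compared in the fit, so in 7 of 11 alternatives (adjusted p from 0.0541 to 0.124). The *Areg* and *Erbb2* differences between these lines were not called, as given above.

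Of the remaining family genes, *Nrg2*, another neuregulin, was tested. It had 9.37, 10.2, and 10.8 RPKM in scramble, 16.5, 15, and 12.9 in *ptgs1*-KO, 4.24, 3.28, and 4.05 in *ptgs2*-KO, and 4.58, 3.95, and 3.96 in *ptges*-KO samples. Like *Btc*, it was highest in *ptgs1*-KO and low in *ptgs2*-KO and *ptges*-KO cells, the last 2 overlapping. The differences from scramble were 0.50 (SE 0.12, adjusted p = 0.0157), -1.20 (SE 0.12, adjusted p = 2.3e-05), and -1.11 (SE 0.12, adjusted p = 2.4e-05). The first was lost without scramble replicate 1 or *ptgs1*-KO replicates 1 or 2 (adjusted p from 0.0510 to 0.0735). *Egf* reached at most 0.34, *Epgn* 0.54, and *Nrg4* 1.27 RPKM, all below the filter. *Nrg3* and *Erbb4* were listed at 0 in all samples, so that EGFR and ERBB3 were the ligand-binding receptors with mRNA listed here.

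Downstream and accessory genes were taken from 5 lists of 72 genes, of which 69 were tested. In *ptgs1*-KO cells 9 of them were called (6 higher, 3 lower), 13.04% beside 9.26% of all genes. In *ptgs2*-KO cells 6 were called (1 higher, 5 lower), 8.70% beside 11.1%. In *ptges*-KO cells 26 were called (8 higher, 18 lower), 37.7% beside 26.3%. The first count was 3 without scramble replicate 2 or *ptgs1*-KO replicate 2, 5 without scramble replicate 3, and 6 without scramble replicate 1 or *ptgs1*-KO replicate 1. The second was 4 without scramble replicates 1 or 3 or *ptgs2*-KO replicates 2 or 3. The third was 17, 16, and 16 without scramble replicates 1, 2, and 3 and 14 without *ptges*-KO replicate 2.

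**Figure D4:**
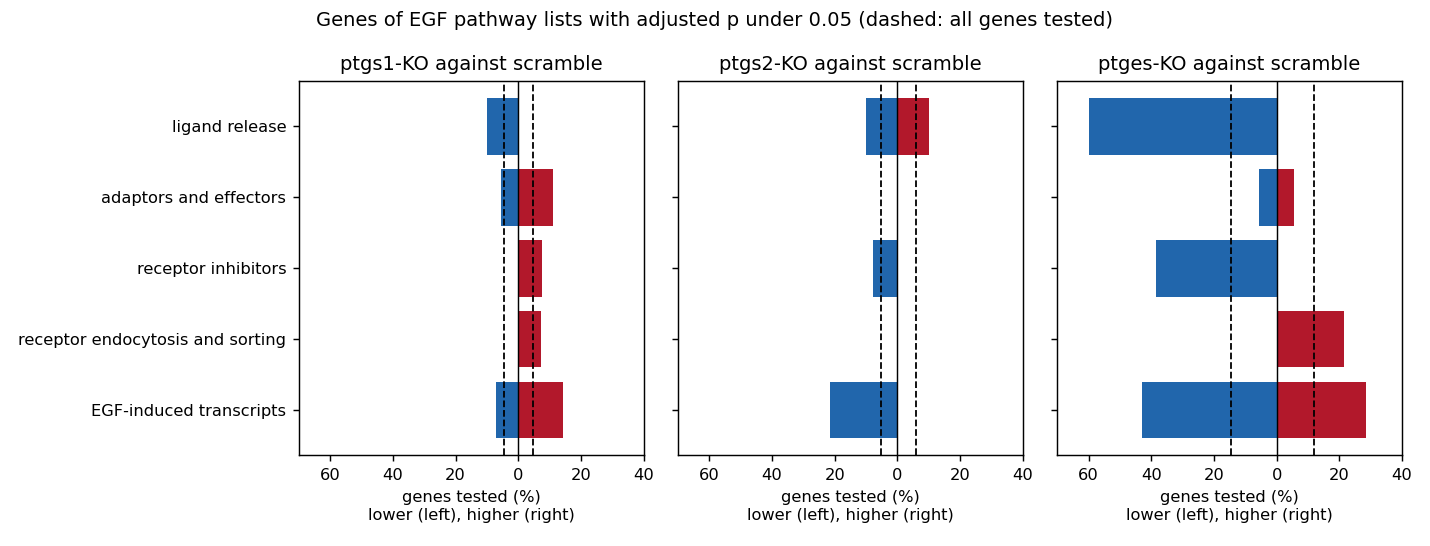
Share of tested genes (%) called lower (left) and higher (right) than in scramble cells, for each of the 5 pathway lists and each knockout line, with dashed lines for the share over all 11282 genes. In *ptges*-KO cells 6 of 10 ligand release genes and 5 of 13 receptor inhibitors were lower, where 14.4% of all genes were.

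Ligand release genes, the proteases that cut ligand precursors and their regulators, were lower in *ptges*-KO cells in 6 of 10 cases (*Adam9*, *Adam15*, *Adam19*, *Bace1*, *Rhbdf1*, and *Rhbdf2*). Over all genes 14.4% were called lower, and the list's median difference was -0.32 beside -0.03. *Rhbdf1*, the gene of the inactive rhomboid iRhom1, was at 123, 123, and 127 RPKM in scramble and 92.6, 87.3, and 90.7 in *ptges*-KO samples (-0.46, SE 0.085, adjusted p = 0.0018), and at 98.0, 101, and 87.7 in *ptgs2*-KO samples (-0.38, adjusted p = 0.0119, and 0.0575 without *ptgs2*-KO replicate 3). *Bace1*, a transmembrane protease that can cut neuregulin 1, was lower in *ptges*-KO cells by 0.49 (adjusted p = 0.0162), and *Adam15* by 0.34 (adjusted p = 0.0118) in *ptges*-KO and by 0.47 (adjusted p = 0.0044) in *ptgs1*-KO cells. *Adam19* was low, at 1.16 to 2.03 RPKM in scramble, 2.37 to 3.19 in *ptgs2*-KO, and 0.88 to 0.98 in *ptges*-KO samples, with differences of 0.54 in *ptgs2*-KO (adjusted p = 0.0275) and -0.42 in *ptges*-KO cells (adjusted p = 0.0464). The main sheddases *Adam10* and *Adam17* were at 107 to 161 and 67.9 to 102 RPKM, and neither was called against scramble. Without a call, *Adam10* in *ptges*-KO samples (107 to 136 RPKM) lay below all scramble samples (137 to 152). So did *Adam17* in *ptgs1*-KO samples (67.9 to 72.2 RPKM, against 83.5 to 85.1 in scramble). In the other knockout lines both genes overlapped with scramble. The *Adam19* calls were lost without scramble replicates 1 or 3 or *ptgs2*-KO replicates 1 or 2, and without scramble replicates 2 or 3 or any *ptges*-KO replicate. They were also lost with only the 2 lines compared in the fit, and that in *ptges*-KO cells with the replicate block and without the filter, so in 8 of 11 alternatives. In *ptges*-KO cells that of *Bace1* was lost without scramble replicate 3 or *ptges*-KO replicates 2 or 3, and that of *Adam15* without scramble replicate 2 or *ptges*-KO replicate 2 (adjusted p of these losses from 0.0522 to 0.172). The *ptges*-KO count was 4 without scramble replicate 1, 2 without scramble replicates 2 or 3 or *ptges*-KO replicate 3, and 1 without *ptges*-KO replicate 2.

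Receptor inhibitors were lower in *ptges*-KO cells in 5 of 13 cases, where 14.4% of all genes were called lower (median -0.26 beside -0.03). In *ptgs1*-KO and *ptgs2*-KO cells 1 of 13 was called in each, where 9.26% and 11.1% of all genes were. *Socs3*, a feedback inhibitor of cytokine and receptor signaling, was at 38.1, 37.4, and 39.8 RPKM in scramble, 49.9, 53.0, and 43.9 in *ptgs1*-KO, 24.2, 26.6, and 24.2 in *ptgs2*-KO, and 20.8, 21.4, and 23.7 in *ptges*-KO samples. It was lower in *ptgs2*-KO (-0.60, adjusted p = 6.7e-04) and *ptges*-KO cells (-0.78, adjusted p = 3.4e-05) and higher in *ptgs1*-KO cells (0.34, adjusted p = 0.0259). The *ptgs1*-KO call was lost without any scramble replicate or *ptgs1*-KO replicates 1 or 2, and with only the 2 lines compared in the fit (adjusted p up to 0.102). *Ptprj* (-0.54, adjusted p = 0.0071) and *Ptpn1* (-0.48, adjusted p = 0.0014), tyrosine phosphatases that act on receptor kinases, and *Lrig1* (-0.41, adjusted p = 0.0117), which promotes ERBB receptor breakdown, fell in *ptges*-KO cells with *Errfi1*. The *Lrig1* call against scramble was lost without *ptges*-KO replicate 2 (adjusted p = 0.0523), when the count of lower inhibitors was 3. In *ptgs2*-KO cells *Ptpn1* and *Ptprj* were among 4 of the 13 genes whose samples lay below all scramble samples, and 1 gene lay above. In *ptges*-KO cells 7 lay below and 0 above. Between *ptges*-KO and *ptgs2*-KO cells only 2 of the 13 were called, *Cbl* and *Lrig1*, both lower in *ptges*-KO cells, beside 16.6% of all genes. That *Lrig1* call was lost in 6 of 11 alternatives.

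Adaptors and effectors were called in 3 of 18 cases in *ptgs1*-KO, in 0 in *ptgs2*-KO, and in 2 in *ptges*-KO cells. Over all genes 9.26%, 11.1%, and 26.3% were called in the same order. By limma's unadjusted p, 3 of the 18 in *ptgs2*-KO cells were under 0.05, beside 26.9% of all genes. With median ratio scaling the counts of called genes were 5, 2, and 5. Over all 11282 genes the counts also rose with it, from 1045, 1257, and 2969 to 1521, 1961, and 3769. *Pik3r3*, a regulatory subunit of phosphoinositide 3-kinase, was at 2.04, 2.06, and 2.37 RPKM in scramble, 1.17, 0.94, and 1.10 in *ptgs1*-KO, and 1.37, 1.08, and 1.18 in *ptges*-KO samples (-0.61, adjusted p = 0.0039, and -0.51, adjusted p = 0.0052). *Gab1*, a docking protein of ERBB receptors, was above its scramble range in all 3 knockout lines, and was called in *ptgs1*-KO cells (0.42, adjusted p = 0.0233). *Stat3*, a transcription factor that EGFR can activate, was also higher there (0.46, adjusted p = 0.0157). Both calls were lost without scramble replicate 2 or *ptgs1*-KO replicate 2, *Gab1* also without scramble replicate 1 and *Stat3* without *ptgs1*-KO replicate 1. *Pik3ca* in *ptges*-KO cells was at the threshold (0.28, adjusted p = 0.0498) and lost the call without any of 5 libraries, all but *ptges*-KO replicate 3. It also lost the call without the filter.

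Endocytosis and sorting genes were called higher in *ptges*-KO cells in 3 of 14 cases, where 11.9% of all genes were (median 0.16 beside -0.03). With median ratio scaling 6 were, and 2054 of all 11282 genes were called higher, against 1342 without that scaling. *Sh3kbp1*, whose product CIN85 links CBL to receptor internalization, was at 9.30, 8.80, and 11.01 RPKM in scramble, 21.1, 17.6, and 18.2 in *ptgs1*-KO, 8.57, 8.54, and 8.51 in *ptgs2*-KO, and 22.1, 20.3, and 15.4 in *ptges*-KO samples. It was higher in *ptgs1*-KO (0.90, adjusted p = 4.8e-04) and *ptges*-KO cells (0.91, adjusted p = 2.5e-04). Its relative *Cd2ap* (0.38, adjusted p = 0.0132) and the late endosome GTPase gene *Rab7* (0.22, adjusted p = 0.0384) were higher in *ptges*-KO cells. The count was 1 without scramble replicates 1 or 2, without which *Cd2ap* and *Rab7* were not called. *Rab7* was not called without any single *ptges*-KO replicate either, nor with only the 2 lines compared in the fit.

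Transcripts that EGF induces in many cells did not move one way. In *ptges*-KO cells 10 of 14 were called, 4 higher (*Egr1*, *Fosl1*, *Myc*, and *Phlda1*) and 6 lower (*Dusp4*, *Dusp5*, *Dusp6*, *Etv5*, *Fos*, and *Spry4*), with a median of -0.12. Over all genes 26.3% were called there, 11.9% higher and 14.4% lower. The shares over all genes were 11.1% in *ptgs2*-KO and 9.26% in *ptgs1*-KO cells. *Fos* was at 12.7, 10.9, and 13.9 RPKM in scramble, 13.5, 16.1, and 15.2 in *ptgs1*-KO, 5.90, 5.23, and 5.06 in *ptgs2*-KO, and 4.02, 4.97, and 5.07 in *ptges*-KO samples. It fell by 1.07 on the log2 scale in *ptgs2*-KO (adjusted p = 6.6e-05) and by 1.24 in *ptges*-KO cells (adjusted p = 8.5e-06). *Egr1* and *Myc*, other immediate early transcription factor genes, were higher in *ptges*-KO cells (0.52, adjusted p = 0.0026, and 0.53, adjusted p = 0.0012). In *ptgs2*-KO cells 3 were called, all lower (*Fos*, *Ier3*, and *Spry2*), with *Ier3* at 109, 88.3, and 102 RPKM in scramble and 58.3, 62.6, and 63.8 in *ptgs2*-KO samples (-0.68, adjusted p = 4.4e-04). In *ptgs1*-KO cells 3 were called (*Dusp4* and *Dusp6* higher, *Dusp5* lower), and none of the 14 was called without scramble replicates 2 or 3 or *ptgs1*-KO replicate 2. The *ptges*-KO count was 6 without scramble replicate 3.

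Genes whose levels ran like those of each member were listed by Pearson correlation of log2(RPKM + 1) over the 12 samples, among the genes tested. For *Areg* they were *Tmem159* (r = 0.987), *Bbs7* (0.986), and *4933424B01Rik* (0.977). For *Btc* they were *Mrc2* (r = 0.991), *Klhdc8a* (0.988), and *2510009E07Rik* (0.985), and for *Erbb2* they were *Ltbp3* (r = 0.990), *Agrn* (0.990), and *Col4a1* (0.986), matrix and matrix-binding genes. *Ereg* ran with *E2f2* (r = 0.984) and *Pxdn* (0.974), *Hbegf* with *Laptm4b* (r = 0.970), *Pgm2* (0.969), and *Sdpr* (0.968), *Nrg1* with *Tapbp* (r = 0.957) and *Pld2* (0.955), and *Erbb3* with *Igsf11* (r = 0.981), *Fkbp14* (0.941), and *Spag5* (0.936). Genes with r of at least 0.9 numbered from 16 for *Erbb3* to 215 for *Btc*. Among the members themselves *Btc* and *Erbb2* were closest (r = 0.927), *Nrg1* and *Erbb3* followed (0.829), and *Areg* and *Btc* were most opposed (-0.829). The 12 points are 4 lines of 3 samples, so these values describe the order of the lines.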

How the data were processed

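RNA from 12 cultures of murine Braf V600E melanoma cells, 4 lines of 3 samples grouped by their labels, was sequenced with 101 bp paired-end reads. The authors deposited RPKM values to 2 decimals, and aligner and counting are not given in the sources used here. Sums of RPKM ran from 878504 to 903881 per sample. Read depth was estimated from steps between low values, and whole reads were not recovered, so counting errors were not computed. Lengths and positions were taken from GENCODE M21. The 11282 genes whose mean reached 1 RPKM were tested in R 4.3.3 with limma 3.58.1 (lmFit, then eBayes with a trend) on log2(RPKM + 1), all 12 samples in 1 model, with p-values adjusted by Benjamini-Hochberg over all genes. The p-values measure the spread between samples of a line. Exact permutation tests took the F statistic over all 15400 divisions, and their p are printed unadjusted. The count of members that differed over the 4 lines used these p adjusted by Benjamini-Hochberg over the members. The scripts were tested on simulated data.

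Members and lists were chosen with earlier results of these data known. Text names all members, the other family genes, the targets, up to 4 called genes a list with the largest change against scramble, list genes without overlap in the same direction in all 3 knockouts, and the 3 genes most correlated with each member, of which 2 are not reported here. Alternatives were a pseudocount of 0.1, no filter, median ratio scaling, a replicate block, a fit of only the 2 lines compared, and leaving out each replicate. Promoter letters were searched in Python 3.11.15, and figures were drawn with matplotlib 3.10.9. Protein sequences were not used here.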

Additional observations from a re-analysis of the deposited data

Results flagged for a closer look

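Members whose change from scramble cells differed between 2 knockout lines, by limma's direct test of those lines, are listed here as log2 differences for the 7 members tested. Between *ptgs2*-KO and *ptgs1*-KO cells these were *Areg* (0.83), *Btc* (-1.28), *Nrg1* (-0.68), *Erbb2* (-0.59), and *Erbb3* (-0.59), with adjusted p from 1.1e-06 to 0.0052. Between *ptges*-KO and *ptgs1*-KO cells they were *Areg* (0.96), *Ereg* (-0.36), *Hbegf* (0.41), *Btc* (-2.20), and *Erbb2* (-0.70), with adjusted p from 1.3e-08 to 0.0078. Between *ptges*-KO and *ptgs2*-KO cells they were *Ereg* (-0.40), *Hbegf* (0.30), *Btc* (-0.92), *Nrg1* (0.44), and *Erbb3* (0.70), with adjusted p from 1.0e-04 to 0.0388. *Areg* in *ptgs1*-KO cells was lower than in scramble cells and in *ptges*-KO cells higher. *Egfr*, below the filter, was called in all 3 pairs without it, by 0.28 (adjusted p = 0.0119), 1.06 (1.4e-06), and 0.78 (2.4e-05) in the same order of pairs. The cause of these differences was not tested.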

How the results depend on the processing

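Of 25 member differences called over the 6 pairs of lines, 24 kept their direction and their call under all 11 alternatives of their comparison. The exception was *Nrg1* between *ptges*-KO and *ptgs2*-KO cells (adjusted p 0.0089 to 0.124). Of 17 differences that were not called, *Btc* in *ptgs1*-KO cells was called under some, and 4 changed sign. These were *Erbb3* in *ptgs1*-KO cells without *ptgs1*-KO replicate 2 (-0.090 to 0.010 with a replicate left out) and in *ptges*-KO cells without *ptges*-KO replicate 1 (-0.037 to 0.145), *Hbegf* in *ptgs2*-KO cells without scramble replicate 1 or *ptgs2*-KO replicate 3 (-0.036 to 0.0083), and *Ereg* between *ptgs2*-KO and *ptgs1*-KO cells without *ptgs1*-KO replicate 3 (-0.015 to 0.088). Members called against scramble in *ptgs1*-KO cells numbered 2 with median ratio scaling (1521 over all genes), 2 with the replicate block (1105), and 1 to 2 with a replicate left out. Between *ptges*-KO and *ptgs2*-KO cells they numbered 4 to 5 with a replicate left out. The 8 members that differed over the 4 lines by permutation (p adjusted over the members under 0.05) numbered 8 whichever replicate was left out. The permutation test was run on the members only, so there is no share over all genes to read this count against.

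With median ratio scaling 16 pathway genes were called in *ptgs1*-KO and 13 in *ptgs2*-KO cells, where 1521 and 1961 of all genes were. With a replicate left out the pathway counts were 3 to 8, 4 to 6, and 14 to 24 in the 3 knockout lines. Over all genes they were 645 to 1008 (1045 with all samples), 722 to 885 (1257), and 1936 to 2746 (2969) against scramble, 2004 to 2537 and 2298 to 3566 for the comparisons with *ptgs1*-KO cells, and 1104 to 2236 for *ptges*-KO against *ptgs2*-KO cells. Median ratio scaling called 1961 genes in *ptgs2*-KO cells. It moved the split of *ptges*-KO against *ptgs2*-KO cells from 763 higher and 1110 lower to 1290 and 1208, that of *ptges*-KO against scramble cells from 1342 and 1627 to 2054 and 1715, and that of *ptges*-KO against *ptgs1*-KO cells from 1494 and 1915 to 2209 and 1907. The cause was not tested. Same-numbered samples of different lines deviated together in 5 of 18 pairs above a correlation of 0.1 (mean 0.0123, from -0.34 to 0.57). The labels do not say whether same-numbered samples were handled together, and these values do not settle it. Apart from the *Btc* call above, the replicate block changed no member call. The unknown read counts limit what can be said of *Egfr*, *Tgfa*, and *Erbb3*, whose levels were near or below 1 RPKM.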
